A study of Mus musculus with 18 samples.

Results

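Pancreatic islets isolated from mice in which exon 2 of Cdh13 was deleted were compared at 14 weeks and at 8 weeks of age, both on chow. Cdh13 encodes T-cadherin, a cadherin held to the cell surface by a lipid anchor. The comparison rests on 6 of the 18 libraries of the study, 3 at each age, chosen by the genotype, age and diet in the labels and by no measured value. The study paired 2 genotypes, Cdh13 exon 2 deleted and Cdh13 exon 2 floxed, with 3 conditions, which were 8 weeks on chow, 14 weeks on chow, and 14 weeks with 6 weeks of high-fat diet. Every library came from the strain C57BL/6. Both ages compared here carry the deletion, so a difference between them is one of age and of whatever else separated the preparations. The labels name no Cre driver, and they do not say whether a library came from 1 mouse or from pooled mice. P-values of genes therefore measure only the spread between libraries within their groups, which may be technical. That spread was estimated from all 18 libraries and not from these 6 alone. The floxed libraries at the same ages were used to show where the deleted islets differed, and the 2 age comparisons share no library.

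Islets hold the endocrine cells of the pancreas. Beta cells secrete insulin, alpha cells glucagon, delta cells somatostatin and PP cells pancreatic polypeptide. Beta cells make so much proinsulin that folding in the endoplasmic reticulum is a constant load, met by chaperones and by the unfolded protein response, and young adult mice still change beta cell number and gene expression. Isolated islets also carry blood vessels, resident macrophages and, in varying amount, attached exocrine tissue, whose acinar cells secrete digestive enzymes.

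Levels are given as FPKM, expression scaled to transcript length and to the mapped fragments of the library, for each library in the order of its replicate number. Differences are 14 weeks minus 8 weeks on the log2(FPKM + 1) scale, which understates the change of genes of low level. A gene was called when its limma p, adjusted by the Benjamini-Hochberg method over the 12234 genes tested, was below 0.05. The 6 libraries detected 11497 to 11672 genes at 1 FPKM or more, and a large part of their summed FPKM was insulin. Correlations of log2 values were 0.981 to 0.990 within the 2 groups and 0.978 to 0.987 between them. Cdh13 itself (chr8:118283733-119324921, mm10) was low, at 0.765, 0.778 and 0.353 FPKM at 8 weeks and 0.691, 0.419 and 0.544 FPKM at 14 weeks, and its ages overlapped (log2 difference -0.07 ± 0.17 SE, adjusted p = 0.905). The floxed libraries measured 1.09, 1.08 and 1.84 FPKM at 8 weeks and 1.63, 2.06 and 1.33 FPKM at 14 weeks, above all 6 deleted libraries. These are values over the whole gene and do not measure exon 2 by itself.

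Several measures of the libraries moved with age. The share of summed FPKM taken by Ins2 was 48.2%, 43.83% and 44.5% at 8 weeks and 42.3%, 43.82% and 40.2% at 14 weeks, and that of the 10 most abundant genes ran from 61.9% to 64.9% and from 55.7% to 60.2%. In both shares all older libraries were below all younger ones, in Ins2 narrowly. Acinar markers made up 0.308% ± 0.0833 (SD, n = 3) of summed FPKM at 14 weeks and 0.0723% ± 0.0881 (SD, n = 3) at 8 weeks, and the groups did not overlap (exact two-sided permutation p = 0.1, the smallest that 3 against 3 allows). GC content tilted the libraries as well. The median log2 deviation of genes in the highest quintile of GC content, minus that in the lowest quintile, was -0.178, -0.0567 and -0.136 in the 8-week libraries and 0.0391, 0.00675 and 0.0365 in the 14-week libraries. Over 12146 genes the log2 difference with age correlated with transcript GC content at a Spearman rho of 0.304 in deleted islets and 0.0378 in floxed islets, where genes are not independent replicates. Genes called higher in deleted islets had a median GC content of 53.9%, genes called lower 47.3%, and all tested genes 49.6%. Acinar tissue and GC content were each set against the results by 1 refit, with acinar markers as a covariate and with the GC trend removed, and their part in the results was not tested further.

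**Figure D1:**
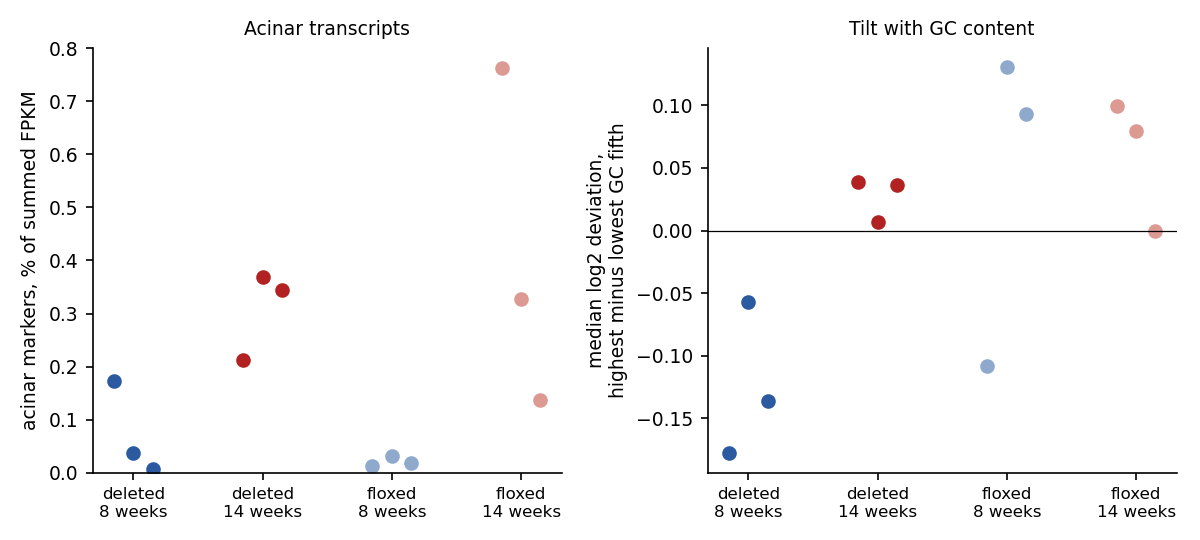
Left, acinar marker transcripts as a percentage of summed FPKM in each chow library; right, the median log2 deviation of genes in the highest GC quintile minus that in the lowest. Each point is 1 library, with 3 libraries a group. In deleted islets the 3 libraries at 14 weeks lie above the 3 at 8 weeks in both panels, while the floxed ages overlap in the right panel.

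At 14 weeks 287 genes were higher (2.35% of those tested) and 69 were lower (0.564%), which makes 356 called genes (2.91%). These shares are the background for the counts of called list members below. The changes were mostly small. Their median size was 0.47 on the log2 scale, 16 of them passed 1, and the median over all tested genes was -0.01. In 353 of the 356 called genes the 3 libraries of one age all lay above the 3 of the other, against 20.2% of all tested genes. The call rests on the difference between these same 6 libraries, so called genes separate largely by construction and the contrast is no added evidence. Lack of overlap was also a condition for naming the largest rises and falls, and for those genes it describes the choice. The largest rises were in exocrine and red blood cell transcripts, and the largest fall was in the PP cell hormone Ppy. The count was lower in a fit of these 6 libraries alone (85 called) and with acinar markers as a covariate (214 called). It also fell when 14-week replicate 1 was left out (149 called), 14-week replicate 3 (202 called), 8-week replicate 1 (200 called) or 8-week replicate 2 (222 called). With sample quality weights the fit called 641 genes higher and 391 lower, a share of 62.1% higher against 80.6%. With the GC trend removed 316 genes were called, of which 264 were among the 356. Of the genes named in the text, Ins1, Slc2a2, Sult4a1, Reg3b, Krt8, C1qc, H2-Ab1 and Mrgpre lost their call in that refit.

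**Figure D2:**
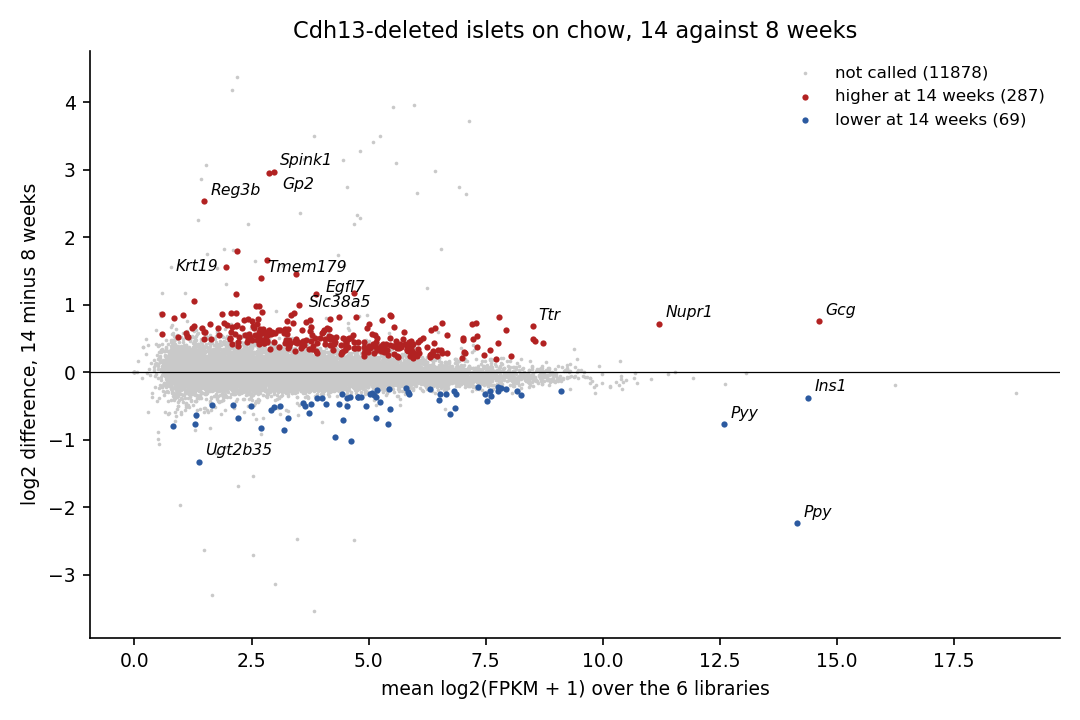
Log2 difference between 14 and 8 weeks (vertical axis) against mean log2(FPKM + 1) over the 6 deleted chow libraries (horizontal axis) for the 12234 genes tested. Red points are the 287 genes called higher at 14 weeks, blue points the 69 called lower, and grey points the rest; Ppy and Gcg stand out among the most abundant transcripts.

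The hormone genes moved in different directions with age. Ppy, which encodes pancreatic polypeptide, fell most among them, Pyy, which encodes the related peptide YY, fell less, and Gcg, which encodes proglucagon, rose. Of the 9 tested genes in the islet hormone list, 1 rose and 3 fell, beside 2.91% of all tested genes called in either direction. Ppy (chr11:102099930-102101319) and Pyy (chr11:102106676-102107832) are neighbours on chromosome 11, with 5356 bases between them. Their promoters are shown because the genes adjoin and fell together. Each line gives the 250 bases before the start of transcription from RefSeq on GRCm38.p6, 5′ to 3′ on the strand of the gene, with the letters TATAA in capitals.
Ppy (chr11:102101320-102101569, minus strand): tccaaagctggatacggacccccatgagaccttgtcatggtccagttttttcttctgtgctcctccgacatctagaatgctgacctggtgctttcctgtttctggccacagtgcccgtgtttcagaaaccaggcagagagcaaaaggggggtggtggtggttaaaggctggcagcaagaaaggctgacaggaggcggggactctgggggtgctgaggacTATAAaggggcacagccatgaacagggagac
Pyy (chr11:102107833-102108082, minus strand): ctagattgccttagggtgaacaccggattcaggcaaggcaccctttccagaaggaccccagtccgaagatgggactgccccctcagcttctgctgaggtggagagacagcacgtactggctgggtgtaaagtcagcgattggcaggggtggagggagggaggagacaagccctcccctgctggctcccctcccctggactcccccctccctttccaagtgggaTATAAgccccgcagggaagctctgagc
TATAA was searched on both strands and stands 31 to 27 bases before the start in Ppy and 27 to 23 bases before it in Pyy. From a second start of Pyy in the same table, the same letters stand 83 to 79 bases before. In windows of the same length it occurs in 12.2% of the 11928 promoters of tested genes, and a match is a description of the letters only.

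Ppy measured 34770.1, 46535 and 37806 FPKM at 8 weeks and 8165, 16598 and 4321 FPKM at 14 weeks. All 3 older libraries lay below all 3 younger ones, and 14-week replicate 2 was nearest to them. The ratio of means was 0.244 ± 0.094 SE (log2 difference -2.24 ± 0.45 SE, adjusted p = 0.0204). In floxed islets Ppy measured 7239, 12267 and 9985 FPKM at 8 weeks and 7067, 11964 and 16168 FPKM at 14 weeks, a range that overlapped the 14-week deleted libraries, so the 8-week deleted libraries were the ones that stood apart. The difference between the genotypes in the age effect did not pass (log2 difference -2.44 ± 0.64 SE, adjusted p = 0.184). The fall in Ppy was called under 10 of 17 alternative analyses. It was not called in the fit of these 6 libraries alone, with or without a block for replicate number, or with the acinar covariate. Nor was it called without either 14-week replicate 1, 14-week replicate 3, 8-week replicate 1 or 8-week replicate 2.

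Pyy measured 7637, 9366 and 7399 FPKM at 8 weeks and 4994, 6281 and 3405 FPKM at 14 weeks. The groups did not overlap (log2 difference -0.77 ± 0.17 SE, adjusted p = 0.0214), and the fall was called under 10 of 17 alternatives. The 14-week libraries kept the order they had for Ppy, with replicate 2 highest and replicate 3 lowest. Sst, Ins1, Ins2 and the summed FPKM of these libraries (992100, 1078671 and 903346) had the same order. The order is therefore not particular to PP cell genes and does not link genes to 1 cell type. Tspan8, a tetraspanin of the cell surface, had that order too, at 49.4, 60.8 and 54.5 FPKM at 8 weeks and 32, 41.6 and 24.2 FPKM at 14 weeks (log2 difference -0.76 ± 0.16 SE, adjusted p = 0.0149). So did Fxyd3, a regulator of the sodium pump, at 32.1, 37 and 33.3 FPKM at 8 weeks and 16.6, 25.3 and 10.3 FPKM at 14 weeks (log2 difference -1.01 ± 0.21 SE, adjusted p = 0.017). In such bulk samples fewer cells of a type and less RNA per cell cannot be told apart. Among delta cell genes, Sst (somatostatin) measured 1760.4, 1979 and 1622 FPKM at 8 weeks and 1735, 1759 and 1349 FPKM at 14 weeks and did not pass (log2 difference -0.15 ± 0.10 SE, adjusted p = 0.516). Rbp4, a retinol carrier, had a difference of 0.10 and did not pass; it was chosen after its values were seen.

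**Figure D3:**
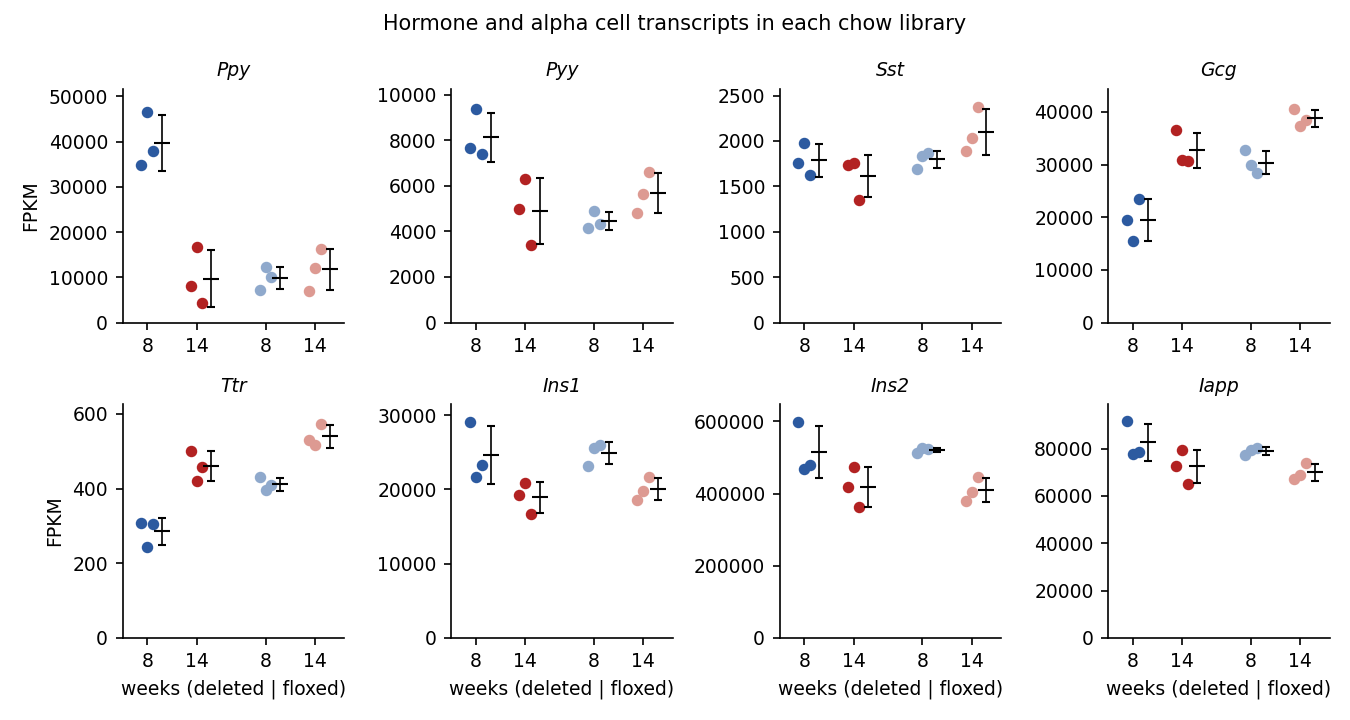
FPKM (vertical axes, from 0) of 8 hormone and alpha cell transcripts in each chow library. Points are libraries, 3 per group, with the mean and SD in black beside them; dark colours are deleted islets and light colours floxed islets, each at 8 and 14 weeks. Ppy and Pyy are highest in the 8-week deleted libraries, and Gcg and Ttr are lowest there.

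Of 10 tested alpha cell markers 3 rose and none fell, beside 2.35% of all tested genes called higher. In the list 9 had a difference above 0, and the median difference was 0.34, beside -0.01 for all genes. Gcg measured 19537, 15558 and 23544 FPKM at 8 weeks and 36545, 30919 and 30702 FPKM at 14 weeks, so that every older library exceeded every younger one (log2 difference 0.76 ± 0.12 SE, adjusted p = 0.00142). Ttr, which encodes transthyretin, a carrier of thyroid hormone and retinol that alpha cells make in quantity, measured 308, 245 and 304 FPKM at 8 weeks and 500.3, 419.9 and 459 FPKM at 14 weeks. Its groups did not overlap either (log2 difference 0.69 ± 0.10 SE, adjusted p = 0.000399), and it was called under all 17 alternatives. Slc38a5, an amino acid transporter of alpha cells, measured 7.14, 5.78 and 8.37 FPKM at 8 weeks and 17.7, 13.5 and 14.2 FPKM at 14 weeks (log2 difference 1.001 ± 0.21 SE, adjusted p = 0.0149). The call of Gcg held under 15 of 17 alternatives, not in the fit of these 6 libraries alone, with or without a block for replicate number. That of Slc38a5 held under 13 of 17. It was lost with the acinar covariate and without 14-week replicate 1, 8-week replicate 1 or 8-week replicate 2. Irx2, a transcription factor of alpha cells chosen after its values were seen, had a difference of 0.37 and did not pass (adjusted p = 0.231). Gcg in floxed islets measured 32835, 29830.3 and 28484 FPKM at 8 weeks and 40581, 37346 and 38385 FPKM at 14 weeks. All 3 floxed libraries at 8 weeks were above the 8-week deleted libraries, and the interaction did not pass (log2 difference 0.41 ± 0.17 SE, adjusted p = 0.476).

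Most beta cell genes did not pass the test. Of 24 tested identity and function genes 1 rose and 1 fell, beside 2.91% of all tested genes called in either direction. The median difference was -0.09, and 17 of the 24 had a difference below 0. All older libraries lay below all younger ones in 8 of them and above in 2, beside 20.2% of all tested genes without overlap in either direction. Slc2a2, the main glucose transporter of mouse beta cells, fell from 42.5, 34.8 and 41.1 FPKM at 8 weeks to 30.4, 29.5 and 30.8 FPKM at 14 weeks (log2 difference -0.37 ± 0.09 SE, adjusted p = 0.0328). Its groups were without overlap, although the call held under only 6 of 17 alternatives.

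Ins1 measured 29056, 21652 and 23257 FPKM at 8 weeks and 19240.2, 20866 and 16743 FPKM at 14 weeks, each older library below each younger one (log2 difference -0.37 ± 0.10 SE, adjusted p = 0.0397). The call held under 7 of 17 alternatives, and the sign turned under quantile normalization. Ins2 measured 599096, 469292 and 478311 FPKM at 8 weeks and 419462, 472688 and 363124 FPKM at 14 weeks. Its ages overlapped, since 14-week replicate 2 exceeded 8-week replicate 2, and it did not pass (log2 difference -0.30 ± 0.10 SE, adjusted p = 0.12). Iapp, which encodes amylin, had a difference of -0.19 (adjusted p = 0.224). Of 15 tested genes of beta cell maturation in young adults 1 rose, Sult4a1, a cytosolic sulfotransferase, at 3.14, 2.95 and 2.58 FPKM at 8 weeks and 5.46, 4.38 and 4.06 FPKM at 14 weeks (log2 difference 0.53 ± 0.14 SE, adjusted p = 0.0404), and its call held under 3 of 16 alternatives. The transcription factors Pdx1 and Mafa and the peptide gene Ucn3 did not pass, with differences of -0.16 for Pdx1, -0.08 for Ucn3 and 0.31 for Mafa. Mafa was low throughout, at 0.347, 0.925 and 1.98 FPKM at 8 weeks and 1.4, 2.22 and 0.924 FPKM at 14 weeks. Of 12 tested genes that mark immature beta cells or are normally kept low in mature ones, 2 rose, Hk1 and Gc. The share of all tested genes called higher was 2.35%, and the list median difference was 0.28. Gc, the vitamin D binding protein, which alpha cells also express, measured 55.1, 47.1 and 48.2 FPKM at 8 weeks and 69.1, 61.5 and 62.7 FPKM at 14 weeks (log2 difference 0.36 ± 0.07 SE, adjusted p = 0.00743). Hk1, the high-affinity hexokinase, measured 0.731, 1.04 and 0.931 FPKM at 8 weeks and 2.55, 1.63 and 2.07 FPKM at 14 weeks (log2 difference 0.69 ± 0.15 SE, adjusted p = 0.0126). The groups of Gc and of Hk1 did not overlap.

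Most secretory granule genes did not pass the test. Of 23 tested members Chgb rose and Scg3 fell, beside 2.91% of all tested genes called in either direction. The median difference was -0.02. Chgb, which encodes chromogranin B of the dense-core granule, measured 249.6, 330.3 and 348 FPKM at 8 weeks and 439, 400.1 and 463 FPKM at 14 weeks (log2 difference 0.50 ± 0.11 SE, adjusted p = 0.017). Scg3, secretogranin III of the same granules, measured 325, 299.8 and 314 FPKM at 8 weeks and 253, 261 and 265 FPKM at 14 weeks (log2 difference -0.27 ± 0.05 SE, adjusted p = 0.00875). Neither gene's groups overlapped. Neither was called in the fit of these 6 libraries alone, with or without a block for replicate number, or without 14-week replicate 1. Chgb was also not called under quantile normalization or without 14-week replicate 3 or 8-week replicate 1. Among 18 tested ion channel genes 1 rose, Kcnh2, a voltage-gated potassium channel, at 6.82, 11.4 and 8.8 FPKM at 8 weeks and 15.9, 13.3 and 17.4 FPKM at 14 weeks (log2 difference 0.74 ± 0.14 SE, adjusted p = 0.00431). Among 17 tested receptor genes Mrgpre rose (log2 difference 0.41 ± 0.10 SE, adjusted p = 0.031).

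Of 13 tested heat shock chaperones, most of them cytosolic, 3 fell and none rose, beside 0.564% of all tested genes called lower. In the list 11 had a difference below 0, and the median was -0.26, beside -0.01 for all genes. Hsp90ab1, the constitutive cytosolic HSP90, measured 619.8, 591 and 612 FPKM at 8 weeks and 510.1, 486 and 515 FPKM at 14 weeks (log2 difference -0.27 ± 0.05 SE, adjusted p = 0.0057). Hsp90aa1, its inducible partner, measured 135, 121 and 133 FPKM at 8 weeks and 100.2, 109 and 101.4 FPKM at 14 weeks (log2 difference -0.33 ± 0.07 SE, adjusted p = 0.0112). Hsph1, which recharges HSP70 with nucleotide, measured 39.2, 37.2 and 39.96 FPKM at 8 weeks and 31.7, 31.9 and 32.7 FPKM at 14 weeks (log2 difference -0.26 ± 0.07 SE, adjusted p = 0.0304). The groups did not overlap in any of these 3 genes, and the largest of the falls was under 0.4 on the log2 scale. Hspa8, the constitutive HSP70, had a difference of -0.18 (adjusted p = 0.088). In floxed islets the list median was 0.00. The list difference between genotypes was not tested. No chaperone was called in the fit of these 6 libraries alone, and 1 was with the acinar covariate or without 14-week replicate 1.

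Genes of folding in the endoplasmic reticulum did not move as a group. Of 28 tested members 3 rose, beside 2.35% of all tested genes called higher, none fell, and the median difference was -0.01. Sdf2l1, a stress-inducible partner of the chaperone BiP, measured 108, 103 and 112 FPKM at 8 weeks and 150.2, 151 and 159 FPKM at 14 weeks (log2 difference 0.51 ± 0.06 SE, adjusted p = 9.82e-05), and it was called under all 17 alternatives. Hyou1, a large HSP70 relative of the same compartment, measured 25.6, 30.5 and 33 FPKM at 8 weeks and 41, 37.5 and 49.4 FPKM at 14 weeks (log2 difference 0.51 ± 0.09 SE, adjusted p = 0.00403). Edem1, which directs misfolded glycoproteins to degradation, measured 38.7, 44.8 and 47.7 FPKM at 8 weeks and 56.2, 53 and 59.5 FPKM at 14 weeks (log2 difference 0.36 ± 0.07 SE, adjusted p = 0.0106). All 3 genes were without overlap. Hspa5, which encodes BiP and was chosen after its values were seen, measured 1818, 1557 and 1616 FPKM at 8 weeks and 1624, 1652 and 1666 FPKM at 14 weeks, with overlapping groups (log2 difference -0.01 ± 0.06 SE, adjusted p = 0.963).

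The promoters of Hspa5 and Sdf2l1 are printed to set a member that did not pass beside one that rose. Capitals mark the endoplasmic reticulum stress element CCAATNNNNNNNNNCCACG, searched on both strands of the 250 bases before the start (RefSeq, GRCm38.p6, 5′ to 3′).
Hspa5 (chr2:34771840-34772089, plus strand): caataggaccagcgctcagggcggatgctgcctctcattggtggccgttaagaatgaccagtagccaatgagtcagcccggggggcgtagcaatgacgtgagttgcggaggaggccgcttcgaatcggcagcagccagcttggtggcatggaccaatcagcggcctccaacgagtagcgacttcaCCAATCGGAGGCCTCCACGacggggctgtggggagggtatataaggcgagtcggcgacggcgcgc
Sdf2l1 (chr16:17132384-17132633, minus strand): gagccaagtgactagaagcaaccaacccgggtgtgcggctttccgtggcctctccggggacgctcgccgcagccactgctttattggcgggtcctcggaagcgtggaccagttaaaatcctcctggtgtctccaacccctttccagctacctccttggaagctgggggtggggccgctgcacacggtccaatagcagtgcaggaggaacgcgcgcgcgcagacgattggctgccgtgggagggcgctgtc
The element stands 65 to 47 bases before the start of Hspa5, and these letters are not in the window of Sdf2l1. Of 25 list members with a promoter window, 7 held the element, among them Hspa5, Hsp90b1 and Pdia6. It occurs in 0.161% of the 9303 tested genes with a promoter window, and in 0.126% of their 11928 promoters. None of the 7 passed the test, and their differences ran from -0.11 for Hsp90b1 to 0.07 for Pdia6. The 7 were chosen by the motif after values were seen. The heat shock element GAANNTTCNNGAA was found in 2 of 9 chaperone genes with a window, against 0.484% of the 9303 genes. The 2 are the facing genes Hspd1 and Hspe1, whose windows overlap and hold the same matched bases, so this is 1 place in the genome.

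Most metabolic genes did not pass the test, although most members of 2 lists were above 0. Of 15 tested glycolysis genes 2 rose, Hk1 and the enolase Eno2, beside 2.35% of all tested genes called higher. In the list 13 had a difference above 0, and the median was 0.20. Eno2 measured 27.3, 27.3 and 29.2 FPKM at 8 weeks and 36.1, 35.6 and 36.4 FPKM at 14 weeks without overlap (log2 difference 0.36 ± 0.07 SE, adjusted p = 0.00875). Pfkl, a phosphofructokinase, had a larger difference of 0.62 and did not pass (adjusted p = 0.127). Of 26 tested genes of cholesterol and fatty acid synthesis 1 rose, 24 had a difference above 0, and the median was 0.15. The member that rose was Fdps, which makes farnesyl diphosphate, at 156, 114 and 126 FPKM at 8 weeks and 185, 201 and 184 FPKM at 14 weeks (log2 difference 0.53 ± 0.10 SE, adjusted p = 0.00355). Acly, which supplies cytosolic acetyl-CoA, measured 497, 604 and 692 FPKM at 8 weeks and 769.7, 669 and 834 FPKM at 14 weeks, with overlapping ages (log2 difference 0.35 ± 0.09 SE, adjusted p = 0.0511).

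Fbp1, the fructose-1,6-bisphosphatase of gluconeogenesis, was among the 15 largest rises, at 13.8, 12.6 and 23.9 FPKM at 8 weeks and 38.7, 36.2 and 38.2 FPKM at 14 weeks (log2 difference 1.18 ± 0.17 SE, adjusted p = 0.00128). Its groups were without overlap, and floxed islets measured 31.6, 27.8 and 29.8 FPKM at 8 weeks and 37.5, 42.9 and 36.3 FPKM at 14 weeks, all above the 8-week deleted libraries. Of 43 tested genes of oxidative phosphorylation 1 rose, Sdha of complex II, at 127, 143 and 145 FPKM at 8 weeks and 176, 171 and 190.2 FPKM at 14 weeks (log2 difference 0.37 ± 0.06 SE, adjusted p = 0.00198), and the list median was -0.04. None of 79 cytosolic ribosomal protein genes passed, with a median of -0.08. Of 31 proteasome genes 1 rose, Psmd13 of the regulatory particle, at 40.6, 43.4 and 46.7 FPKM at 8 weeks and 58.5, 61.1 and 65.8 FPKM at 14 weeks (log2 difference 0.49 ± 0.07 SE, adjusted p = 0.0002), which was called under all 17 alternatives. Among 21 tested antioxidant genes Gpx3, a secreted glutathione peroxidase, rose from 286, 303 and 365 FPKM at 8 weeks to 468, 419 and 427 FPKM at 14 weeks (log2 difference 0.47 ± 0.08 SE, adjusted p = 0.00198). Gclm, a subunit of the enzyme that starts glutathione synthesis, fell from 127, 121 and 123 FPKM at 8 weeks to 101.3, 105 and 99.97 FPKM at 14 weeks (log2 difference -0.27 ± 0.06 SE, adjusted p = 0.0166), and the list median was -0.18. Both genes were without overlap.

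**Figure D4:**
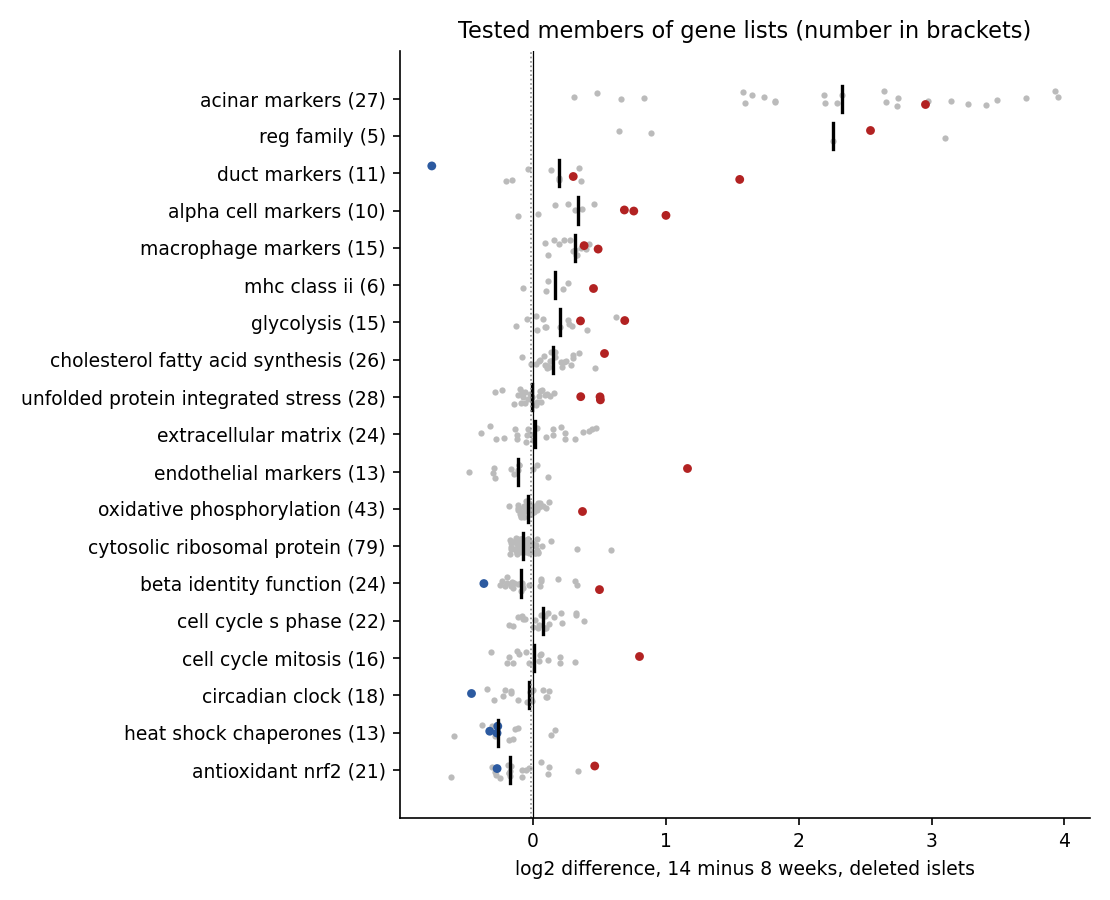
Log2 difference between 14 and 8 weeks in deleted islets (horizontal axis) for the tested members of 19 gene lists (rows, with the number tested). Grey points did not pass, red points rose and blue points fell; black bars are list medians and the dotted line is the median of all 12234 genes. Acinar markers lie to the right with 1 member called, and heat shock chaperones lie mostly to the left.

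Exocrine transcripts showed the largest differences and the widest spread between libraries. All 27 tested acinar markers had a difference above 0, with a median of 2.33, and 14 were without overlap (9.93% of all tested genes were so and higher), yet 1 passed the test. That member was Gp2, a glycoprotein of the zymogen granule membrane, at 5.27, 1.49 and 0.188 FPKM at 8 weeks and 14.3, 27.3 and 18.9 FPKM at 14 weeks (log2 difference 2.95 ± 0.64 SE, adjusted p = 0.0279). Ctrb1, a chymotrypsinogen, measured 97.2, 15.3 and 1.47 FPKM at 8 weeks and 199.6, 338 and 216 FPKM at 14 weeks and did not pass (log2 difference 3.96 ± 1.15 SE, adjusted p = 0.103). Within the 8-week group replicate 1 held most of the acinar signal, and replicate 3 the least. Without 8-week replicate 1, 7 acinar markers passed and the list median was 3.43, and without 8-week replicate 3 none passed and it was 1.33. With quality weights 13 passed, with a pseudocount of 0.1 none did, and none passed without any other single library or in the fit of these 6 alone. Cela1, an elastase, measured 152, 48.8 and 19.6 FPKM at 8 weeks and 275, 397 and 346 FPKM at 14 weeks (log2 difference 2.64 ± 0.69 SE, adjusted p = 0.0709). Amy2a5, a pancreatic amylase gene, was listed at 0 in all 6 libraries, and such near-identical copies can split reads.

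Spink1, the trypsin inhibitor of acinar cells, which was not on that list, rose from 6.22, 0.923 and 0.608 FPKM at 8 weeks to 15.4, 36.4 and 16.6 FPKM at 14 weeks (log2 difference 2.97 ± 0.69 SE, adjusted p = 0.0394). Reg3b, a secreted lectin of the Reg family that acinar cells make under stress, measured 0.273, 0.122 and 0.12 FPKM at 8 weeks and 2.2, 14.3 and 5.39 FPKM at 14 weeks (log2 difference 2.54 ± 0.62 SE, adjusted p = 0.0487). It was the only one of 5 tested Reg genes to pass, and the 5 had a median of 2.26. The calls of Spink1 and Reg3b were lost with the acinar covariate, and Reg3b was called under 5 of 16 alternatives. In floxed islets 9 acinar markers rose with age and the median was 3.57.

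Of 11 tested duct markers 2 rose and 1 fell, beside 2.91% of all tested genes called in either direction, with a median of 0.19. Krt19, a keratin of duct cells, measured 0.519, 1.79 and 1.71 FPKM at 8 weeks and 5.73, 6.03 and 5.19 FPKM at 14 weeks without overlap (log2 difference 1.56 ± 0.30 SE, adjusted p = 0.00966), and its call was lost with the acinar covariate. Krt8, a keratin that endocrine cells also make, measured 118, 114 and 118 FPKM at 8 weeks and 139, 152 and 142 FPKM at 14 weeks (log2 difference 0.30 ± 0.08 SE, adjusted p = 0.0488), and the member that fell was Tspan8. The call of Krt8 held under 3 of 17 alternatives. Among 4 tested erythroid genes the globins Hba-a1 and Hbb-b1 rose, beside 2.35% of all tested genes called higher. Hba-a1 measured 3.37, 4.35 and 1.78 FPKM at 8 weeks and 9.5, 14.2 and 11.8 FPKM at 14 weeks (log2 difference 1.66 ± 0.31 SE, adjusted p = 0.00966), and Hbb-b1 measured 0.882, 1.59 and 2.01 FPKM at 8 weeks and 5.2, 7.52 and 10.6 FPKM at 14 weeks (log2 difference 1.79 ± 0.39 SE, adjusted p = 0.0225). The groups of both globins were without overlap, though the near-identical copy Hba-a2 had a difference of -0.34 and the counting could split reads between copies. Neither globin was called with a pseudocount of 0.1, and Hba-a1 was not called with the acinar covariate. Slc4a1, the anion exchanger of red blood cells, was listed at 0 in all 6 libraries. Erythroid markers made up 0.00041% to 0.000961% of summed FPKM at 8 weeks and 0.00208% to 0.00285% at 14 weeks.

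All 15 tested macrophage markers had a difference above 0, with a median of 0.32. Of them 2 passed, beside 2.35% of all tested genes called higher. Ctss, the lysosomal protease cathepsin S, measured 28.7, 27 and 26.1 FPKM at 8 weeks and 37.8, 37 and 33.1 FPKM at 14 weeks (log2 difference 0.39 ± 0.09 SE, adjusted p = 0.0173). C1qc, a chain of complement C1q made by tissue macrophages, measured 16.5, 19.5 and 18 FPKM at 8 weeks and 28.8, 25.9 and 22.7 FPKM at 14 weeks (log2 difference 0.49 ± 0.12 SE, adjusted p = 0.0292). Both were without overlap. No macrophage marker was called in the fit of these 6 libraries alone or without 14-week replicate 1, 14-week replicate 2 or 8-week replicate 3, and 5 were without 14-week replicate 3. In floxed islets 13 of the 15 rose and the median was 0.74, and the age effect on Ctss was smaller in deleted islets (log2 difference -0.63 ± 0.12 SE, adjusted p = 0.0428). Of 6 tested MHC class II genes H2-Ab1 rose (log2 difference 0.45 ± 0.11 SE, adjusted p = 0.0236). Its call was lost in the fit of these 6 libraries alone, with the acinar covariate and without a filter on low values. It was also lost without 14-week replicate 2, 14-week replicate 3, 8-week replicate 1 or 8-week replicate 3. H2-Aa, which encodes the other chain of the same molecule, measured 21.4, 23.3 and 20.5 FPKM at 8 weeks and 22, 22 and 17.9 FPKM at 14 weeks with overlap (log2 difference -0.08 ± 0.10 SE, adjusted p = 0.793). The T cell receptor gene Cd3g was listed at 0 in all 6 libraries, and none of 6 tested members of the lymphocyte list passed.

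Of 17 tested inflammatory genes 1 rose and 2 fell, beside 2.91% of all tested genes called in either direction. Il1b, which encodes interleukin-1 beta, measured 7.17, 8.61 and 7.44 FPKM at 8 weeks and 3.91, 2.93 and 5.12 FPKM at 14 weeks (log2 difference -0.83 ± 0.19 SE, adjusted p = 0.0227). Nfkbia, the inhibitor that NF-kappa B induces, measured 49.8, 43.4 and 37.4 FPKM at 8 weeks and 34.1, 30.4 and 30.6 FPKM at 14 weeks (log2 difference -0.44 ± 0.10 SE, adjusted p = 0.0183). C3, the central complement component, measured 0.802, 0.85 and 0.637 FPKM at 8 weeks and 1.36, 1.77 and 1.76 FPKM at 14 weeks (log2 difference 0.58 ± 0.13 SE, adjusted p = 0.0231). None of the 3 overlapped between ages, and their calls held under 8 of 17, 10 of 17 and 9 of 16 alternatives. None of 21 tested interferon response genes passed, with a median of -0.05.

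With 1 exception, the tested members of the endothelial and extracellular matrix lists did not pass the test. Of 13 tested endothelial markers 1 passed and 10 had a difference below 0, with a median of -0.11 beside 0.38 in floxed islets. The member that rose was Egfl7, a secreted protein of endothelial cells, at 7.21, 9.58 and 9.74 FPKM at 8 weeks and 20.00, 24.3 and 18.4 FPKM at 14 weeks. Every older library was above every younger one (log2 difference 1.16 ± 0.11 SE, adjusted p = 5.68e-06), and the call held under all 17 alternatives. Emcn, an endothelial sialomucin, measured 42.5, 40.3 and 41 FPKM at 8 weeks and 31, 35 and 23 FPKM at 14 weeks, each older library below each younger one, and did not pass (log2 difference -0.48 ± 0.16 SE, adjusted p = 0.146). None of 24 tested extracellular matrix genes passed, with a median of 0.02 beside 0.48 in floxed islets. Sparc, a matrix protein, had differences of -0.39 in deleted and 0.48 in floxed islets, and the interaction did not pass (adjusted p = 0.0896). These list differences between genotypes were not tested.

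The other large rises belonged to no single list. Tmem179, a transmembrane protein, measured 3.89, 2.43 and 2.78 FPKM at 8 weeks and 10.1, 8.25 and 10.3 FPKM at 14 weeks (log2 difference 1.399 ± 0.13 SE, adjusted p = 5.68e-06). Gfra3, the receptor for the growth factor artemin, measured 2.72, 3.37 and 4.53 FPKM at 8 weeks and 8.51, 7.71 and 7.43 FPKM at 14 weeks (log2 difference 0.99 ± 0.19 SE, adjusted p = 0.0072). Acp5, the tartrate-resistant acid phosphatase of osteoclasts and macrophages, measured 3.37, 3.84 and 2.68 FPKM at 8 weeks and 8.78, 6.6 and 7.05 FPKM at 14 weeks (log2 difference 0.98 ± 0.14 SE, adjusted p = 0.000611). These 3 genes were called under all 17 alternatives, and their lack of overlap between ages was a condition of their being named. Ppp1r17, an inhibitor of protein phosphatases, measured 1.04, 0.397 and 0.654 FPKM at 8 weeks and 2.58, 2.41 and 2.43 FPKM at 14 weeks (log2 difference 1.05 ± 0.15 SE, adjusted p = 0.000611). Mfap2, a protein of elastic microfibrils, measured 2.51, 1.99 and 1.57 FPKM at 8 weeks and 6.61, 4.66 and 5.91 FPKM at 14 weeks (log2 difference 1.15 ± 0.13 SE, adjusted p = 4.12e-05). Floxed islets held Mfap2 at 6.58, 5.15 and 5.79 FPKM at 8 weeks and 6.61, 6.04 and 6.4 FPKM at 14 weeks, so only the 8-week deleted libraries were low, and the interaction passed (log2 difference 1.05 ± 0.18 SE, adjusted p = 0.0168). Nupr1, a stress-inducible regulator chosen after its values were seen, was the most abundant of them at 2158, 1898 and 1499 FPKM at 8 weeks and 2868, 3369 and 2852 FPKM at 14 weeks (log2 difference 0.72 ± 0.09 SE, adjusted p = 0.000169).

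Several of the larger falls were in enzymes and surface proteins. The UDP-glucuronosyltransferases conjugate steroids and drugs, and 3 genes of the family on chromosome 5 fell. They are Ugt2b34 (chr5:86889767-86906937), Ugt2b35 (chr5:87000860-87013275) and Ugt2b36 (chr5:87065927-87092555). Ugt2b1, which was not tested at its level near 0, lies between Ugt2b34 and Ugt2b35. Ugt2b35 measured 2.6, 3.52 and 3.25 FPKM at 8 weeks and 0.663, 0.96 and 0.36 FPKM at 14 weeks (log2 difference -1.32 ± 0.14 SE, adjusted p = 1.86e-05). Ugt2b36 measured 1.76, 1.45 and 0.874 FPKM at 8 weeks and 0.385, 0.319 and 0.337 FPKM at 14 weeks (log2 difference -0.79 ± 0.15 SE, adjusted p = 0.0057). Ugt2b34, chosen after its values were seen, was far more abundant, at 117, 112 and 108 FPKM at 8 weeks and 87.4, 90.7 and 89.1 FPKM at 14 weeks (log2 difference -0.33 ± 0.08 SE, adjusted p = 0.031). No ages overlapped in these 3 genes, whose similar sequences could share reads. Floxed islets held Ugt2b35 at 0.723, 0.694 and 0.556 FPKM at 8 weeks and 0.706, 0.907 and 0.857 FPKM at 14 weeks, near the older deleted libraries, and the interaction passed (log2 difference -1.46 ± 0.19 SE, adjusted p = 0.00323).

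Folr1, the folate receptor, measured 27.8, 25.5 and 25.5 FPKM at 8 weeks and 10.4, 19.6 and 10.7 FPKM at 14 weeks (log2 difference -0.96 ± 0.17 SE, adjusted p = 0.00432), while the floxed libraries held 14.9, 15.6 and 13.7 FPKM at 8 weeks and 15.6, 13.9 and 16.8 FPKM at 14 weeks. Cyp1a1, a monooxygenase induced through the aryl hydrocarbon receptor, measured 11.6, 13.4 and 9.44 FPKM at 8 weeks and 5.1, 6.87 and 5.67 FPKM at 14 weeks (log2 difference -0.86 ± 0.14 SE, adjusted p = 0.00173). Cxcl16, a chemokine anchored in the membrane, measured 31.7, 25 and 25.1 FPKM at 8 weeks and 15.2, 17.3 and 16.1 FPKM at 14 weeks (log2 difference -0.71 ± 0.09 SE, adjusted p = 0.000169). Cyp1a1 and Cxcl16 were called under all 17 alternatives. The ages of all 3 genes were without overlap, which was a condition of their being named. Defb1, an antimicrobial defensin, measured 48.9, 45.2 and 38.3 FPKM at 8 weeks and 26.8, 27 and 27.6 FPKM at 14 weeks (log2 difference -0.68 ± 0.14 SE, adjusted p = 0.0128). Igf2bp2, an mRNA-binding protein of growing tissues, measured 2.26, 2.05 and 2.28 FPKM at 8 weeks and 0.937, 0.91 and 0.812 FPKM at 14 weeks (log2 difference -0.76 ± 0.15 SE, adjusted p = 0.00588), and it was the 1 member called of 7 tested genes linked with age and growth. The remaining falls among the 15 largest were Rgcc (-0.68), Syce1 (-0.67) and Pcolce2 (-0.63).

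Of 2 lists of proliferation genes 1 member passed. None of 22 tested S phase genes passed, with a median of 0.08. Of 16 tested mitosis genes 1 rose, Birc5, which encodes survivin, at 0.197, 0.554 and 0.348 FPKM at 8 weeks and 1.9, 1.49 and 0.842 FPKM at 14 weeks (log2 difference 0.80 ± 0.21 SE, adjusted p = 0.0429), and its call held under 6 of 16 alternatives. Mki67, the usual proliferation marker, chosen after its values were seen, was under the test's limit at 0.239, 0.261 and 0.163 FPKM at 8 weeks and 0.197, 0.184 and 0.173 FPKM at 14 weeks. None of 13 G1 cyclin and inhibitor genes and none of 8 imprinted growth genes passed. Of 18 tested clock genes 1 fell, Nr1d1, a repressor of the clock, at 16.2, 21.2 and 20.3 FPKM at 8 weeks and 14.7, 11.8 and 14.3 FPKM at 14 weeks without overlap (log2 difference -0.47 ± 0.11 SE, adjusted p = 0.0212). The time of day of islet isolation is not given in the sources used here. Among 16 tested cadherins, catenins and T-cadherin partners 1 rose, Cdh22, a classical cadherin, at 1.6, 1.8 and 2.35 FPKM at 8 weeks and 4.41, 3.78 and 3.33 FPKM at 14 weeks (log2 difference 0.73 ± 0.15 SE, adjusted p = 0.00911). Ctnnb1, which encodes beta-catenin, had a difference of -0.20 (adjusted p = 0.0588), and the list median was -0.01.

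In floxed islets 392 genes were called higher (3.2% of those tested) and 116 lower (0.948%) over the same ages, 4.15% together. Of the genes called higher in deleted islets, 105 were also called higher in floxed islets, which is 36.6% of the deleted and 26.8% of the floxed calls. Of those called lower, 17 were shared, 24.6% of the deleted and 14.7% of the floxed calls. Among the genes called in deleted islets, 261 of 287 higher genes had a floxed difference above 0, and 56 of 69 lower genes had one below 0. A gene called in one genotype alone is not shown to differ between them, so the difference itself was tested. It passed for 24 genes (0.196%), 6 with a higher (0.049%) and 18 with a lower age difference (0.147%) in deleted than in floxed islets. Of these, 10 were also called in deleted islets, and Erdr1 and Ppap2a were called there in opposite directions to floxed islets.

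**Figure D5:**
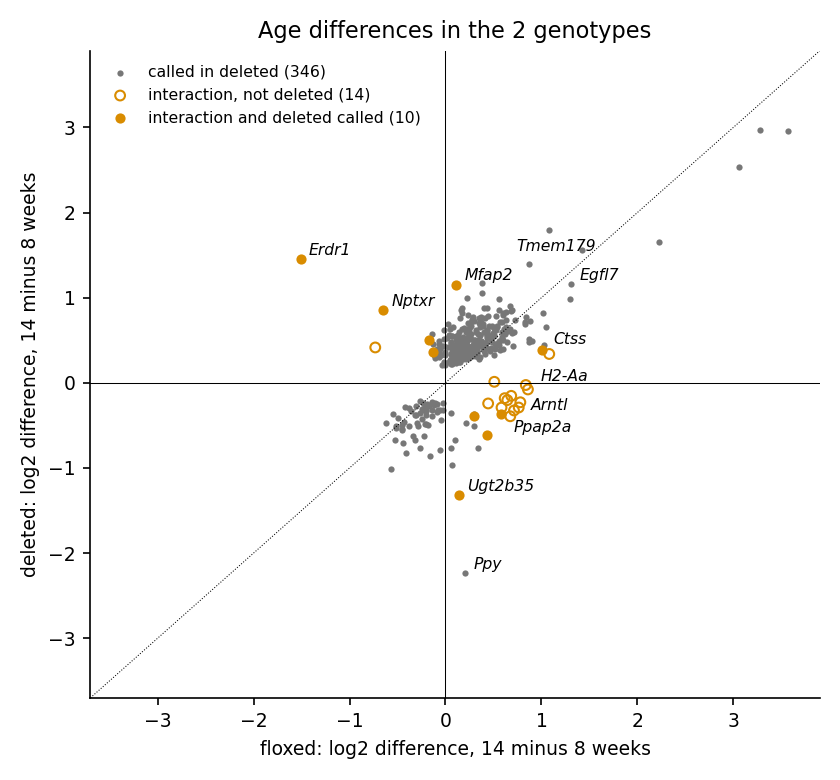
Log2 difference between 14 and 8 weeks in floxed (horizontal axis) and deleted islets (vertical axis) for every gene called in deleted islets or in the interaction. Filled orange points are the 10 genes called in both tests, open orange points the 14 called in the interaction and not in deleted islets, all of which were called in floxed islets, and the dotted line marks equal differences. Most grey points lie in the quadrants of equal sign, and Erdr1, Mfap2 and Ugt2b35 lie far from the line.

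The 5 smallest p-values of the interaction belonged to Ugt2b35, Ppap2a, Erdr1, H2-Aa and Arntl. Ppap2a, a lipid phosphate phosphatase, measured 31.9, 29.7 and 28.7 FPKM at 8 weeks and 23.6, 25.8 and 20.4 FPKM at 14 weeks in deleted islets (log2 difference -0.36 ± 0.09 SE, adjusted p = 0.0346). Floxed islets measured 20.5, 22 and 23.2 FPKM at 8 weeks and 29.7, 32 and 38.4 FPKM at 14 weeks, so the gene moved down in one genotype and up in the other (log2 difference -0.94 ± 0.13 SE, adjusted p = 0.00323). Erdr1, a gene with no unique position in the annotation used, measured 5.82, 5.18 and 5.94 FPKM at 8 weeks and 13.6, 25.2 and 14.7 FPKM at 14 weeks in deleted islets (log2 difference 1.45 ± 0.26 SE, adjusted p = 0.00887). In floxed islets it measured 84.9, 56.9 and 49.4 FPKM at 8 weeks and 16.5, 31.2 and 18.3 FPKM at 14 weeks, and the 8-week floxed libraries were the highest (log2 difference 2.96 ± 0.37 SE, adjusted p = 0.00734). H2-Aa measured 16.8, 17.5 and 13.5 FPKM at 8 weeks and 26.7, 31.5 and 30.6 FPKM at 14 weeks in floxed islets, a rise that the overlapping deleted libraries did not show (log2 difference -0.94 ± 0.15 SE, adjusted p = 0.012). Arntl, which encodes the clock activator BMAL1, measured 7.17, 5.87 and 8.78 FPKM at 8 weeks and 5.44, 5.42 and 6.26 FPKM at 14 weeks in deleted and 4.12, 4.02 and 5.05 FPKM at 8 weeks and 7.49, 8.45 and 8.48 FPKM at 14 weeks in floxed islets (log2 difference -1.05 ± 0.17 SE, adjusted p = 0.0131). The count of 24 was 3 without a filter on low values, 4 without floxed 8-week replicate 1, 7 without deleted 14-week replicate 3 and 8 without floxed 14-week replicate 2.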

How the data were processed

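Total RNA of isolated islets was copied into full-length cDNA with a SMART-Seq HT kit and made into Nextera libraries, per the labels' protocols, which leaves reads of both strands mixed. Each of 18 libraries has a table of FPKM per gene, as the authors deposited it. The submitters' processing notes list Cufflinks 2.2.1, TopHat2 2.0.13, SAMtools 0.1.19, Bowtie2 2.2.3 and the build mm10, without roles. FPKM are not counts, and the total depth is unknown; the steps of low values give a relative depth that spanned 1.21-fold over the 6 libraries compared.

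All 18 libraries were fitted as 6 group means with limma 3.58.1 in R 4.3.3 (trend and robust moderation) on log2(FPKM + 1), for genes that reached 1 FPKM in 3 or more libraries. P-values are two-sided and were adjusted by the Benjamini-Hochberg method over 12234 of 24346 listed genes. The fit was tested on simulated data. Single values used an exact permutation test over 6 libraries. Positions and GC content come from GENCODE M21, and promoters from RefSeq.

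Named genes were Cdh13 and 10 islet genes, the 15 genes of largest rise and the 15 of largest fall that were called without overlap, up to 5 genes of smallest p in each list, and the 5 of smallest p in the interaction. Others are marked as chosen after their values were seen, and a few genes that these rules name are not reported here. The members and the gene lists were chosen with earlier results of these data known. The high-fat diet libraries entered the estimate of the spread and the filter that set which genes were tested, and no comparison used them. The alternatives are given in the closing section.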

Additional observations from a re-analysis of the deposited data

Results flagged for a closer look

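The change with age differed between deleted and floxed islets by a test of the difference itself (limma interaction, adjusted over 12234 genes) for 24 genes, and the values below are deleted minus floxed on the log2 scale. Ugt2b35, a UDP-glucuronosyltransferase gene, had an interaction of -1.46. Its 8-week deleted libraries ranged above all other chow libraries. The lipid phosphatase gene Ppap2a had one of -0.94, with a fall in deleted and a rise in floxed islets. Erdr1 had 2.96 with the opposite pattern. Mfap2, of elastic microfibrils, had 1.05, and its 8-week deleted libraries were the lowest of the chow libraries. H2-Aa, of MHC class II, had -0.94, and Ctss, cathepsin S, had -0.63, the first with a rise in floxed islets and overlapping ages in deleted islets, the second with the larger rise in floxed islets. Arntl, the clock activator, had -1.05.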

How the results depend on the processing

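The number of genes called with age in deleted islets stayed within 1.5 times of 356 for another pseudocount, other filters on low values, other scalings, plain moderation, and removal of the GC trend, an alternative chosen after seeing the data. It was 1032 with sample quality weights, 214 with acinar markers as a covariate, 85 in a fit of only the groups compared, and 149 to 302 when 1 library was left out. Quantile normalization gave 352 calls, 72.2% of them higher against 80.6%, with 311 shared with the 356; GC removal gave 316, 74.7% of them higher, with 264 shared. Quality weights gave 62.1% higher. Replicate numbers did not pair the libraries (same-numbered deviations correlated at -0.159, -0.057 and 0.096), and a replicate block left 59 calls, 10 of the list members among them. Called list members numbered 45, with 118 under quality weights, 25 with the acinar covariate, 11 with only the groups compared, and 23 to 38 without 1 library. Floxed calls were 963 with quality weights and 237 to 502 without 1 library. The interaction gave 3 calls without a filter, 182 with quality weights, 55 with the acinar covariate, 14 with only the groups compared and 4 to 41 without 1 library. The acinar share differed by 0.236 percentage points, by 0.408 without insulin in the sum, and by 0.203 to 0.286 without 1 library. Of the 70 called genes named here, 18 were called under every alternative that tested them; 39 genes in all were called under every one of the 17. The causes were not tested.

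Under quantile normalization the log2 difference was 0.28 for Ins1 and 0 for Ins2, Iapp and Hspa5. With the acinar covariate it was 0.20 for Hba-a2. Hspa5 had 0.034 with quality weights and 0.019 with GC removal. Leaving out 1 library gave -0.134 to 0.0039 for Ucn3, -0.195 to 0.0020 for Cdh13, -0.125 to 0.016 for H2-Aa, -1.09 to 0.070 for Hba-a2 and -0.057 to 0.055 for Hspa5. Only Ins1 among these was called as designed. Depth in reads is unknown, so the precision of low values cannot be stated.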

Other observations

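Among the 39 genes called under all 17 alternatives, 33 were higher and 6 lower at 14 weeks, and several were not described above. They were chosen after their values were seen. Akt2, the insulin-responsive kinase, measured 26.8, 35 and 33.8 FPKM at 8 weeks and 57.1, 55.7 and 59.9 FPKM at 14 weeks (limma log2 difference 0.84 ± 0.08 SE, adjusted p = 5.68e-06). Prnp, the prion protein, measured 112, 116 and 136 FPKM at 8 weeks and 209, 186 and 212 FPKM at 14 weeks (log2 difference 0.73 ± 0.08 SE, adjusted p = 4.46e-05). Akr1a1, an aldehyde reductase, measured 206, 186 and 196 FPKM at 8 weeks and 293, 314 and 302 FPKM at 14 weeks (log2 difference 0.63 ± 0.06 SE, adjusted p = 5.68e-06). Fkbp2, a prolyl isomerase of the endoplasmic reticulum, measured 109, 115 and 121 FPKM at 8 weeks and 181, 208 and 181 FPKM at 14 weeks (log2 difference 0.72 ± 0.08 SE, adjusted p = 4.19e-05), and Sumo3, a ubiquitin-like modifier, measured 80.5, 88.3 and 82.8 FPKM at 8 weeks and 121, 121 and 126 FPKM at 14 weeks (log2 difference 0.55 ± 0.06 SE, adjusted p = 4.46e-05). No ages overlapped in these 5 genes, and all 5 were also called higher in floxed islets.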
